A study of Mus musculus with 15 samples.

Results

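Glycolysis, the fates of its product pyruvate and the pentose phosphate pathway were followed through 34 enzyme genes in mouse E14 embryonic stem cells kept in 5 culture media. The genes were chosen by symbol, for their place in these pathways and with earlier results of these data known. Each was found among the 49585 genes of the count table. All 34 also held enough counts to enter the test, which covered 15223 genes. They fall into 8 roles: 3 genes for hexokinases and glucose 6-phosphate isomerase, 3 for phosphofructokinases, 3 for the enzymes of fructose 2,6-bisphosphate, 10 for lower glycolysis, 2 for lactate dehydrogenases, 4 for the pyruvate dehydrogenase complex and its phosphatase, 3 for pyruvate dehydrogenase kinases and 6 for the pentose phosphate pathway.

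RNA was sequenced from 15 libraries, 3 from each group, after poly(A) selection. Every group used wild-type E14 cells, a mouse embryonic stem cell line, that had been maintained in 0.4 µM PD0325901 (an inhibitor of the kinase MEK), 3 µM CHIR99021 (an inhibitor of the kinase GSK3) and 4 ng/ml Lif, a cytokine that sustains self-renewal. The cells were then set at 2000 per µl into Matrigel reduced in growth factors, a basement membrane gel, and given serum-free N2B27 medium with PD032+ Aurka inh, with PD032, with Aurka inh (an inhibitor of Aurora kinase A), with FGF2/Activin or with 2iLif. PD032+ Aurka inh is called the combination below. In some labels FGF2/Activin appears as FAK, an abbreviation that is not spelled out, and neither is PD032. Which Aurora inhibitor was used, at what dose, and how long the cells stayed in the gel are not stated in the labels. No group had N2B27 alone, so each inhibitor could be set only against another medium. Nothing in the labels says whether the 3 libraries of a group came from separate cultures, so p-values measure the spread between these libraries, which may be technical.

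In glycolysis a hexokinase traps glucose as glucose 6-phosphate, phosphofructokinase commits it to breakdown, and the lower steps yield ATP, NADH and pyruvate. Lactate dehydrogenase turns pyruvate into lactate, whereas the pyruvate dehydrogenase complex feeds it into mitochondria as acetyl-CoA; pyruvate dehydrogenase kinases switch that complex off and phosphatases switch it on. The pentose phosphate pathway draws off glucose 6-phosphate to make NADPH and ribose. Mouse pluripotent cells are known for high glycolytic flux, and the balance between glycolysis and respiration is known to differ between the naive state, which 2iLif medium sustains, and the primed state, which FGF2 and Activin medium sustains.

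The promoters of the genes on which the results turn most are shown first, because many glycolytic promoters are known to carry the short letters bound by hypoxia-inducible factors and by Myc-type factors. Each line gives 250 bases before to 50 bases after a transcription start, from RefSeq on build GRCm38.p6 in the gene's own direction. Capitals mark ACGTG or GCGTG on either strand, so that CACGT and CACGC stand for matches on the other strand; a CACGTG overlaps ACGTG on each strand and counts there on both. Ldha, encoding the lactate dehydrogenase subunit that favours lactate production, starts at chr7:46845554-46845853 (plus strand), within the gene at chr7:46841475-46855627. Ldhb, its partner subunit, is shown for chr6:142507908-142508207 (minus strand). Hk1 is shown for chr10:62340372-62340671 and Hk2 for chr6:82774405-82774704 (both minus strand), and Pdk1 for chr2:71872974-71873273 (plus strand).
Ldha: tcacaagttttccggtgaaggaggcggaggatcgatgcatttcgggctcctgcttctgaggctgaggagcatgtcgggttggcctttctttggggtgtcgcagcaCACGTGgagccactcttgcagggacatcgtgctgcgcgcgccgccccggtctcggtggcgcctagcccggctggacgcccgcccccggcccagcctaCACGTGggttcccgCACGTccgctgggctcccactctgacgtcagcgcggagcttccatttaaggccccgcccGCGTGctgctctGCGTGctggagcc
Ldhb: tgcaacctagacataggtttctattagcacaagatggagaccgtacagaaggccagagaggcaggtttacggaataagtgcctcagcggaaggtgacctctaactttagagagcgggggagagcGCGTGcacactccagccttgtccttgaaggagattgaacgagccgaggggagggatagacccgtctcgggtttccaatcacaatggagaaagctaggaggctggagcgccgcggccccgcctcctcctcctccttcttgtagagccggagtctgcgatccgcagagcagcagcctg
Hk1: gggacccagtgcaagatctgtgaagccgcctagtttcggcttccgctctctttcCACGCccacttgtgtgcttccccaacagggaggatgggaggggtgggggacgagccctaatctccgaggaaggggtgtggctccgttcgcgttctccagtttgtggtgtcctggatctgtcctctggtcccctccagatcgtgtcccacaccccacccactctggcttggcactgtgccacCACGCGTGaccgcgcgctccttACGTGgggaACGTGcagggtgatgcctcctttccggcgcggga
Hk2: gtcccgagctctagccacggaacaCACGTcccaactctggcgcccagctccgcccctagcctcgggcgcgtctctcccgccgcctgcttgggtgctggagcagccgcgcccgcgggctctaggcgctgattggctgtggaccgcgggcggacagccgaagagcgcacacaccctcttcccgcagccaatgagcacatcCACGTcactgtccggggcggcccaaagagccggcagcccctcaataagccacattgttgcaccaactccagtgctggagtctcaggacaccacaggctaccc
Pdk1: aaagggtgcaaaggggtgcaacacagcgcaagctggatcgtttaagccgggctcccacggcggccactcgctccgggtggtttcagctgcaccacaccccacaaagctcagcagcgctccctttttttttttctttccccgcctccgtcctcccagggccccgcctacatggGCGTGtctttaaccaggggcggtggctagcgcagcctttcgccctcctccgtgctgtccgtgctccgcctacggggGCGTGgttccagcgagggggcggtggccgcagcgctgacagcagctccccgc

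The Ldha window held ACGTG at 5 positions, GCGTG at 2 and CACGTG at 2, counting both strands, whereas the Ldhb window held GCGTG at 1 and no ACGTG. The Hk1 window held ACGTG at 2 positions and GCGTG at 3, the Hk2 window ACGTG at 2 and no GCGTG, and the Pdk1 window GCGTG at 2 and no ACGTG. Ldha, Hk1 and Pdk1 also have another RefSeq start that is not printed. Of the 33 enzyme genes with a promoter in the table, 16 (48.5%) had ACGTG in at least 1 promoter, against 21.8% of 27025 genes. GCGTG occurred for 24 of the 33 (72.7%), against 35.2% of genes, and CACGTG for 5 of the 33 (15.2%), against 8.09%. A gene with more starts has more chances of a match. Counted by promoter, ACGTG occurred in 40.0% of the 50 promoters of enzyme genes, against 19.6% of 32851 promoters. GCGTG occurred in 60.0% against 32.4%, and CACGTG in 10.0% against 7.15%. These are matches of letters in a window and not binding sites.

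Library totals were 19304585 to 24202544 counts for the combination, 18421904 to 22683616 for PD032, 16010904 to 21691325 for Aurka inh, 15234243 to 15703321 for FGF2/Activin and 15199507 to 15818758 for 2iLif. The biological coefficient of variation was 8.84% in the combination, 9.24% in PD032 and 11% in Aurka inh, against 1.77% in FGF2/Activin and 4.53% in 2iLif. With only FGF2/Activin and 2iLif in the fit, 5393 of 13966 genes were higher and 5465 lower in FGF2/Activin. In the fit of all libraries these were 5063 and 4962 of 15223. The library numbered 2 had the lowest total of each of the 3 inhibitor groups. In all 3 of these groups it was also the lowest library for 9 of the 34 enzyme genes (Pfkl, Pfkfb3, Aldoc, Tpi1, Pgk1, Eno2, Pkm, Ldha and G6pdx) and the highest for 8 (Hk1, Gpi1, Eno3, Ldhb, Pdk3, Pgd, Tkt and Taldo1). The share of all tested genes with this pattern was not counted. Across all tested genes the libraries numbered 2 deviated together from their group means (r 0.407 to 0.483). The 9 and 8 thus mark the library and are not a result about the enzymes. The inhibitor libraries were named in another style than those of FGF2/Activin and 2iLif, so in the 3 comparisons of an inhibitor medium with 2iLif a difference between batches of libraries cannot be told apart from the medium.

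All 7 markers of embryonic stem cells were present in every group, with a summed level of 2429 to 2631 CPM (read counts scaled to the size of the library) in the combination, 2287 to 2416 in PD032, 2501 to 2764 in Aurka inh, 2728 to 2766 in FGF2/Activin and 3163 to 3220 in 2iLif. These sums hide single markers. Against 2iLif the log2 fold changes of the 7 ran from -1.47 to 0.81 in the combination and -3.32 to 1.18 in PD032. They ran from -1.82 to 1.34 in Aurka inh and -3.43 to 1.90 in FGF2/Activin. The 6 fibroblast markers summed to 4.13 to 6.45 CPM in the combination, 9.56 to 12.3 in PD032, 12.5 to 19.5 in Aurka inh, 13.9 to 15.8 in FGF2/Activin and 2.47 to 3.04 in 2iLif, with Postn at 0 in every group. At most 2 of the 6 reached 1 CPM in a group. The 5 mesoderm markers summed to at most 11.2 CPM and the 6 primitive endoderm markers to at most 7.54. The 5 trophoblast markers summed to 40.5 to 60.4 CPM in the combination, 27.5 to 30.7 in PD032, 21.5 to 26.3 in Aurka inh, 19.2 to 22.1 in FGF2/Activin and 68.7 to 70.3 in 2iLif. The 5 neuroectoderm markers summed to 88.7 to 96.3 CPM in the combination, 101 to 113 in PD032, 33.2 to 35.0 in Aurka inh, 66.9 to 72.8 in FGF2/Activin and 79.1 to 83.0 in 2iLif. Against 2iLif the log2 fold changes of the 3 that were tested ran from -2.92 to 3.77 in the combination and -0.09 to 5.20 in PD032. They ran from -4.41 to 1.27 in Aurka inh and -0.74 to 1.46 in FGF2/Activin. The part of these cell types in the differences below was not tested, and in bulk RNA fewer cells of a type and less RNA per cell cannot be told apart.

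The 34 genes together took 1.45% to 1.53% of all counts in the combination, 1.37% to 1.42% in PD032, 1.503% to 1.60% in Aurka inh, 1.38% to 1.40% in FGF2/Activin and 1.18% to 1.30% in 2iLif, so all 12 libraries of the other media lay above the 3 of 2iLif. The ratio of the highest to the lowest group mean ran from 1.14 for Pdhb to 4.65 for Pdk2. It passed 2 for 16 of the 34 genes (47.1%), against 43.6% of all tested genes with counts in every group. Among genes averaging at least 100 CPM it passed 2 for 8 of 23 enzyme genes (34.8%), against 13% of 2523 genes. Because the enzyme genes were chosen with earlier results of these data known, the choice itself can raise such shares. FGF2/Activin had the highest group mean for 10 genes, Aurka inh for 9, 2iLif for 7, the combination for 6 and PD032 for 2, whereas 2iLif had the lowest for 13. How many of all tested genes were highest or lowest in each group was not counted, so these numbers are not a trait of the enzyme genes. Rankings over all 5 media also cross the naming styles, where a batch cannot be told apart.

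**Figure D1:**
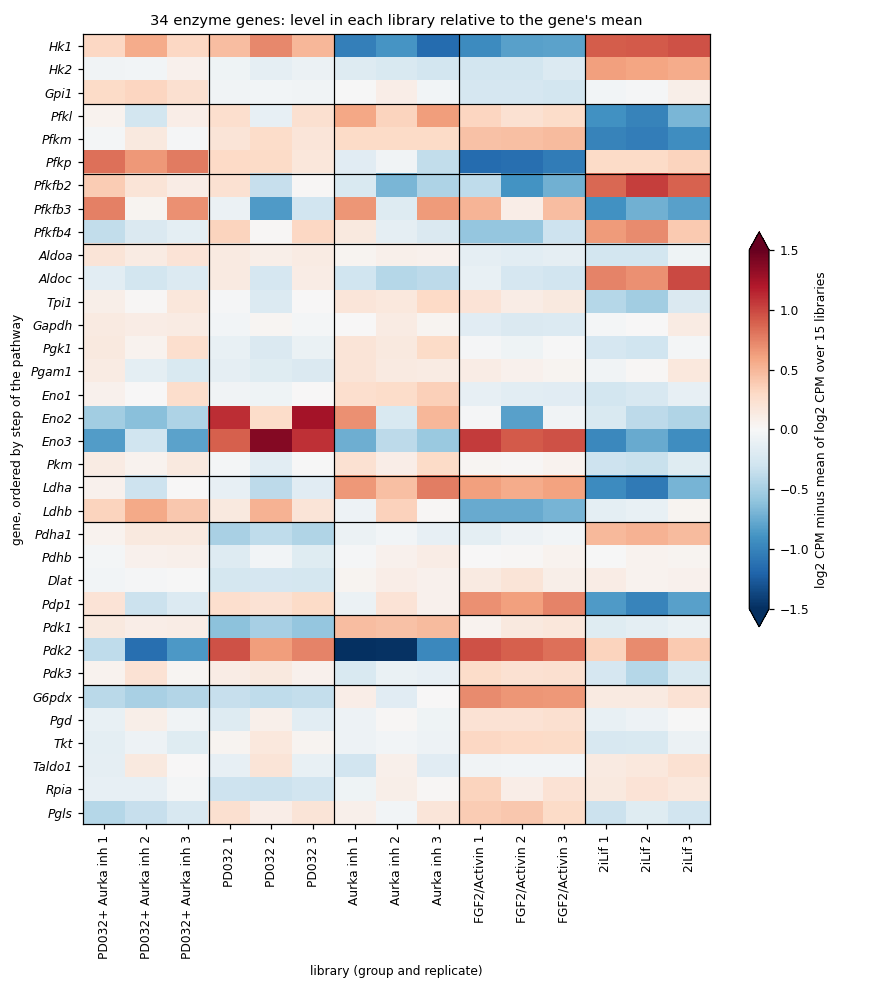
Each cell is 1 library (columns, grouped by medium) and 1 enzyme gene (rows, in pathway order), coloured by log2 CPM minus the gene's mean over 15 libraries; colours end at 1.5 in either direction. Hk1 is low in the Aurka inh and FGF2/Activin libraries, Pfkp is low in FGF2/Activin, Ldha and Pfkm are low in 2iLif, and Eno3 and Pdk2 are high in PD032 and FGF2/Activin.

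In FGF2/Activin against 2iLif, 15 of the 34 genes were higher and 10 lower at an adjusted p under 0.05, where 65.9% of all tested genes passed (33.3% higher and 32.6% lower). The libraries of these groups did not overlap for 26 of the 34, against 75.7% of all genes. In the combination against PD032, 11 were higher and 8 lower, where 43.7% of all genes passed (20.0% higher and 23.8% lower), and 22 did not overlap, against 49.2%. In the combination against Aurka inh, 8 were higher and 9 lower, where 34.9% passed (18.6% higher and 16.3% lower), and 18 did not overlap, against 40.0%. In PD032 against Aurka inh, 8 were higher and 14 lower, where 45.5% passed (25.8% higher and 19.7% lower), and 24 did not overlap, against 47.8%. The median log2 fold change of the 34 genes was 0.08, 0.09, -0.06 and -0.06 in these comparisons in the same order, beside -0.01, 0.01, 0.01 and 0.02 over all tested genes. The members thus moved in both directions in each of the 4. These counts come from a fit by group, which does not pair libraries by number. With replicate number as a block, 16 genes were higher and 11 lower in the combination against PD032. The numbers were 10 and 12 in the combination against Aurka inh, and 12 and 14 in PD032 against Aurka inh. Over all genes 57.8%, 48.5% and 57.8% passed with the block, in the same order.

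Against 2iLif, 15 genes were higher and 9 lower in the combination, where 47.6% of all genes passed (23.8% in each direction), and 26 did not overlap, against 56.9%. In PD032 against 2iLif, 14 were higher and 12 lower, where 63.0% passed (32.1% higher and 30.9% lower), and 26 did not overlap, against 68.0%. In Aurka inh against 2iLif, 13 were higher and 10 lower, where 58.4% passed (28.9% higher and 29.5% lower), and 26 did not overlap, against 62.7%. These 3 comparisons share their 2iLif libraries with each other and with the FGF2/Activin comparison, and the comparisons among inhibitor media share libraries too. Pdk1 and Pdha1 passed in all 7 comparisons, and no enzyme gene failed in all 7. How many of all tested genes passed in all 7, or in none, was not counted, so neither is a trait of the enzyme genes. Without the 3 inhibitor libraries numbered 2, an analysis added after seeing the data, the genes higher and lower numbered 14 and 10 in the combination against PD032, 10 and 9 in the combination against Aurka inh, and 12 and 14 in PD032 against Aurka inh. Over all genes more passed as well without these libraries, at 50.7%, 41.4% and 50.9% in the same order.

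**Figure D2:**
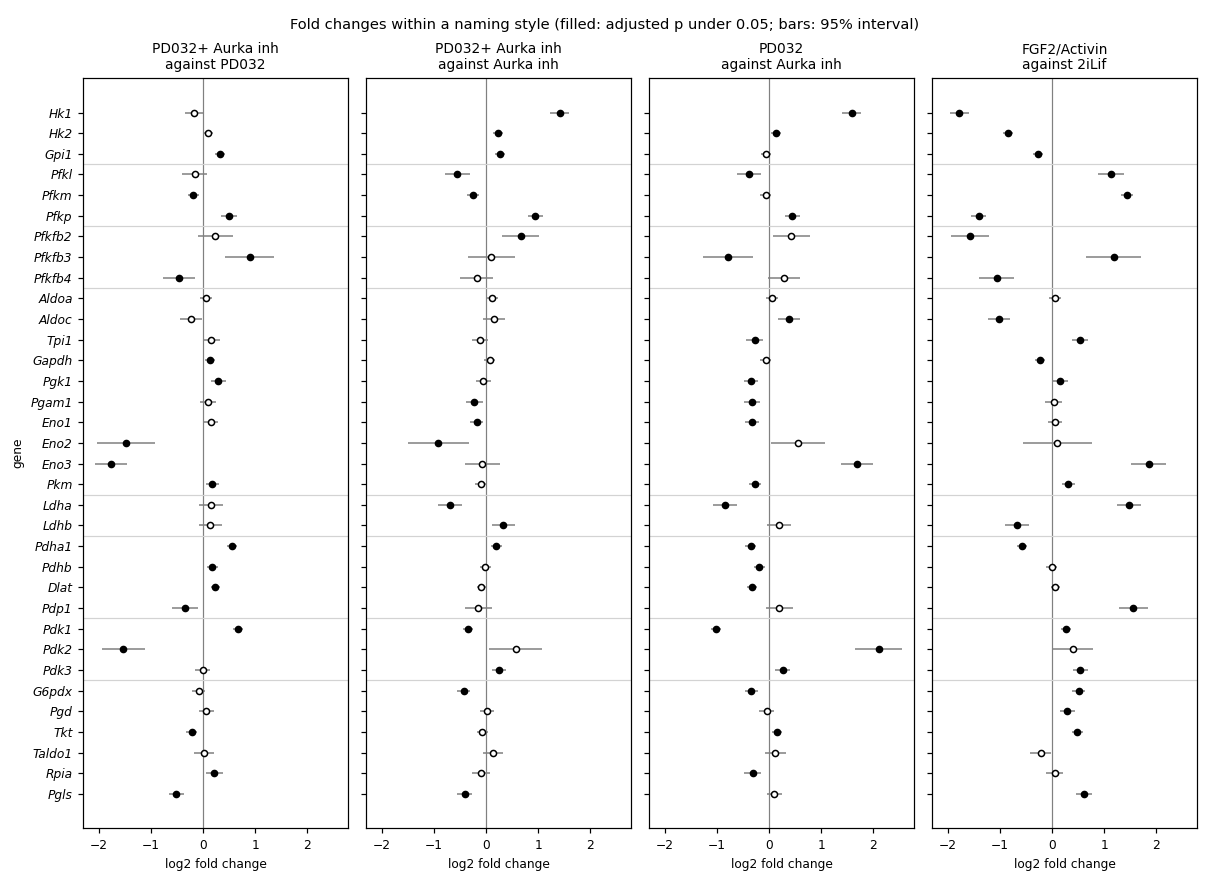
Points are log2 fold changes of the 34 enzyme genes in the 4 comparisons that stay within a naming style, with 95% intervals; filled points passed at an adjusted p under 0.05. Hk1 lies at -1.78 in FGF2/Activin against 2iLif and at 1.59 in PD032 against Aurka inh, and Ldha at 1.48 and -0.85 in those comparisons.

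Hexokinases carried the clearest contrast at the entry of the pathway. Hk1, the hexokinase found in most tissues, gave 119, 141 and 119 CPM in the combination, 132, 159 and 136 in PD032, 47.1, 52.2 and 43.1 in Aurka inh, 49.9, 54.9 and 54.9 in FGF2/Activin and 180.0, 182 and 187 in 2iLif. The 6 libraries of Aurka inh and FGF2/Activin thus lay below all 9 others. Hk1 was lower in FGF2/Activin than in 2iLif (log2 fold change -1.78 ± 0.09 SE, adjusted p = 3.0e-11). It was higher in PD032 than in Aurka inh (1.59 ± 0.09, adjusted p = 4.9e-10) and in the combination than in Aurka inh (1.41 ± 0.09, adjusted p = 7.0e-09). Between the combination and PD032 the log2 fold change was -0.17 (adjusted p = 0.097), and with replicate number as a block it passed (adjusted p = 0.00034); without the libraries numbered 2 it passed as well (adjusted p = 0.0077).

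Hk2, the hexokinase that is induced in growing and hypoxic cells, was measured at 395, 398 and 430 CPM in the combination, 392, 372 and 386 in PD032, 359, 351 and 339 in Aurka inh, 340, 338 and 356 in FGF2/Activin and 631, 618 and 602 in 2iLif. Every library of the other media lay below every 2iLif library. Hk2 was lower in FGF2/Activin than in 2iLif (log2 fold change -0.84 ± 0.05, adjusted p = 1.2e-10), and lower than in 2iLif by 0.60 in the combination, 0.69 in PD032 and 0.82 in Aurka inh. Among the inhibitor media its differences were small: 0.22 in the combination against Aurka inh (adjusted p = 0.0013) and 0.13 in PD032 against Aurka inh (adjusted p = 0.027). That call was lost without any of 3 libraries (Aurka inh 3, PD032 1 or PD032 3; adjusted p 0.070 to 0.102). Its log2 fold change was 0.09 in the combination against PD032 (adjusted p = 0.12; 0.044 with the replicate block).

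Gpi1, which converts glucose 6-phosphate to fructose 6-phosphate, averaged 611 ± 16 CPM in the combination, 486 ± 2 in PD032, 507 ± 27 in Aurka inh, 419 ± 3 in FGF2/Activin and 505 ± 24 in 2iLif (SD, n = 3 each). Gpi1 was higher in the combination than in PD032 (0.33, adjusted p = 2.6e-05), Aurka inh (0.27, adjusted p = 0.00031) and 2iLif (0.27, adjusted p = 0.00016), and lower in FGF2/Activin than in 2iLif (-0.27, adjusted p = 8.6e-05).

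The 3 phosphofructokinase genes, whose products assemble into tetramers at the committed step, did not all move alike. In FGF2/Activin against 2iLif Pfkp was lower, and Pfkm and Pfkl were higher. In the combination against 2iLif, where a batch cannot be told apart, all 3 were higher. Pfkp, the platelet form, gave 738, 649 and 710 CPM in the combination, 511, 505 and 467 in PD032, 367, 401 and 322 in Aurka inh, 186, 189 and 200 in FGF2/Activin and 507, 504 and 521 in 2iLif. It stood highest in the combination, and no FGF2/Activin or Aurka inh library reached the lowest of the 9 others. Pfkp was lower in FGF2/Activin than in 2iLif (-1.41 ± 0.07, adjusted p = 4.4e-11), and higher in the combination than in PD032 (0.50 ± 0.07, adjusted p = 2.1e-05) and Aurka inh (0.94 ± 0.07, adjusted p = 5.5e-08). PD032 exceeded Aurka inh as well (0.44 ± 0.07, adjusted p = 7.1e-05).

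Pfkm, the muscle form, went the other way between FGF2/Activin and 2iLif. It gave 108, 121 and 108 CPM in the combination, 125, 133 and 125 in PD032, 133, 133 and 133 in Aurka inh, 148, 150.3 and 152 in FGF2/Activin and 54.6, 53.2 and 57.6 in 2iLif. Its level was the highest in FGF2/Activin and the lowest in 2iLif, with no overlap between these groups. Pfkm was higher in FGF2/Activin than in 2iLif (1.44 ± 0.05, adjusted p = 1.3e-12), where it had the smallest adjusted p of the 34 genes. In the combination it was lower than in PD032 (-0.18, adjusted p = 0.0079; 0.058 without combination 1 and 0.059 with only these groups in the fit) and Aurka inh (-0.25, adjusted p = 0.0012). Pfkl, the liver form, gave 362, 289.5 and 374 CPM in the combination, 415, 320.0 and 412 in PD032, 520.4, 441 and 540 in Aurka inh, 435, 408 and 423 in FGF2/Activin and 187, 175 and 216 in 2iLif. All 12 libraries of the other media lay above 2iLif, and the libraries numbered 2 were the low ones of each inhibitor group. Pfkl was higher in FGF2/Activin than in 2iLif (1.13 ± 0.11, adjusted p = 2.3e-07). It was lower than in Aurka inh in the combination (-0.55, adjusted p = 0.0012) and in PD032 (-0.39, adjusted p = 0.0097). Between the combination and PD032 it differed by -0.16 (adjusted p = 0.26; 0.0013 with the replicate block, and 0.031 without the libraries numbered 2).

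The Pfkfb genes encode enzymes that make and break down fructose 2,6-bisphosphate, a strong activator of phosphofructokinase. Pfkfb3, whose product mostly makes it, was found at 28.6, 17.4 and 27.1 CPM in the combination, 15.95, 9.39 and 13.8 in PD032, 26.6, 14.8 and 26.3 in Aurka inh, 24.1, 18.1 and 23.2 in FGF2/Activin and 9.03, 10.2 and 9.57 in 2iLif. The combination libraries lay above the PD032 ones, whereas PD032 and Aurka inh overlapped through Aurka inh 2. Pfkfb3 was higher in the combination than in PD032 (0.90 ± 0.22, adjusted p = 0.0040), lower in PD032 than in Aurka inh (-0.79 ± 0.23, adjusted p = 0.0093) and higher in FGF2/Activin than in 2iLif (1.18 ± 0.25, adjusted p = 0.00048). The combination and Aurka inh differed by 0.10 (95% interval -0.36 to 0.56, adjusted p = 0.76).

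Pfkfb2 and Pfkfb4, the forms first described in heart and testis, were rarer and highest in 2iLif. Pfkfb2 gave 6.35, 5.54 and 5.25 CPM in the combination, 5.71, 3.81 and 4.93 in PD032, 4.14, 3.02 and 3.54 in Aurka inh, 3.74, 2.62 and 2.94 in FGF2/Activin and 8.84, 10.01 and 8.99 in 2iLif. All 2iLif libraries lay above all others. Pfkfb2 was lower in FGF2/Activin than in 2iLif (-1.58 ± 0.17, adjusted p = 5.8e-07) and higher in the combination than in Aurka inh (0.67 ± 0.17, adjusted p = 0.0054). Between PD032 and Aurka inh it missed the threshold (0.43, adjusted p = 0.05003; 0.012 with the replicate block). Pfkfb4 averaged 2.72 ± 0.30 CPM in FGF2/Activin and 5.72 ± 0.63 in 2iLif (-1.07 ± 0.16, adjusted p = 1.7e-05). It was also lower in the combination than in PD032 (-0.47, adjusted p = 0.016), a call lost without combination 1, PD032 1 or PD032 3 (adjusted p 0.060 to 0.068).

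**Figure D3:**
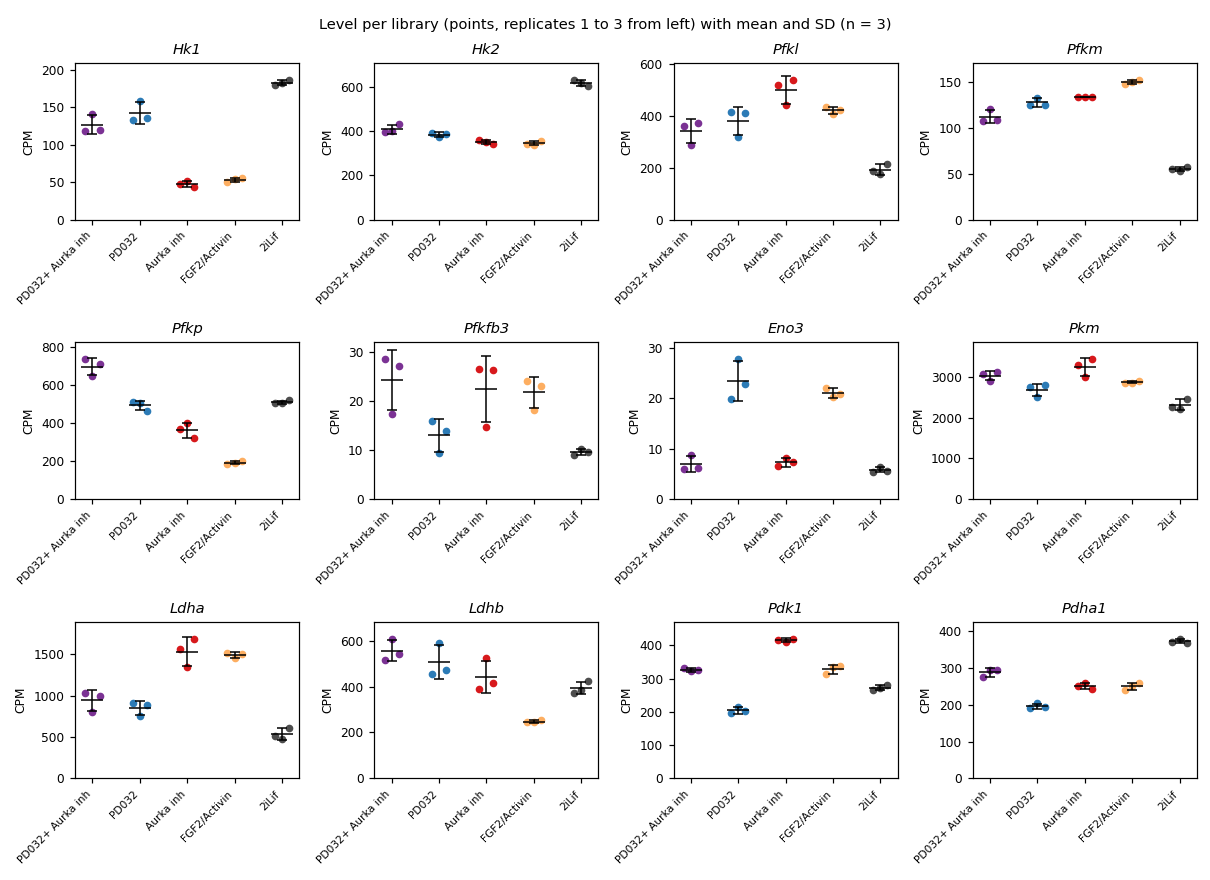
Points are CPM of single libraries for 12 enzyme genes, with the mean and SD of each group (n = 3); axes start at 0. Hk1 and Pfkp are low in Aurka inh and FGF2/Activin, Ldha is high in both at 1351 to 1689 CPM, and the library numbered 2 stands apart for Pfkl, Pfkfb3, Ldha and Ldhb in the inhibitor groups.

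The enzymes of lower glycolysis split into abundant genes that moved little and rare isozymes that moved most. Per kilobase of exon, Aldoa (aldolase A) averaged 775 CPM in the combination, 744 in PD032, 717 in Aurka inh, 624 in FGF2/Activin and 599 in 2iLif, and Pkm (pyruvate kinase of muscle type) 606, 537, 648, 574 and 463 in the same order. At the other end, Eno2 (the neuronal enolase) averaged 0.378 CPM per kilobase in the combination, 1.05 in PD032, 0.707 in Aurka inh, 0.462 in FGF2/Activin and 0.429 in 2iLif.

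**Figure D4:**
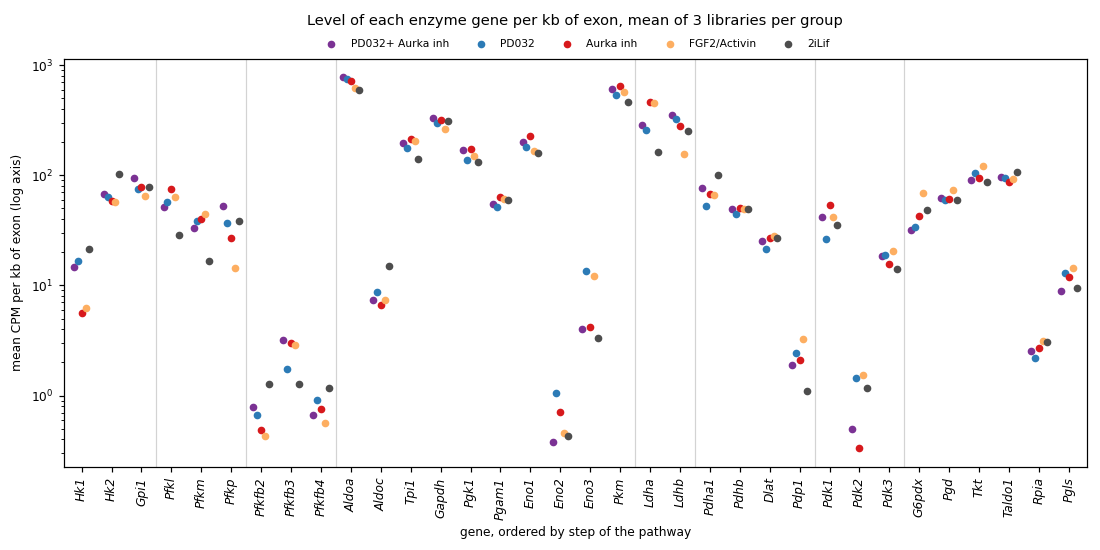
Mean CPM per kilobase of exon for each enzyme gene in each medium (3 libraries each, logarithmic axis), in pathway order. Aldoa and Pkm lead in every medium, and the means of Pfkfb2, Pfkfb4, Eno2 and Pdk2 lie between 0.333 and 1.55 CPM per kilobase.

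Eno3, the muscle enolase, separated the media in a different way from Hk1. It gave 5.98, 8.72 and 6.12 CPM in the combination, 19.9, 27.8 and 22.8 in PD032, 6.46, 8.18 and 7.28 in Aurka inh, 22.1, 20.2 and 20.8 in FGF2/Activin and 5.46, 6.36 and 5.6 in 2iLif. All libraries of PD032 and FGF2/Activin lay above all others. Eno3 was lower in the combination than in PD032 (-1.76 ± 0.14, adjusted p = 6.7e-08), higher in PD032 than in Aurka inh (1.69 ± 0.15, adjusted p = 1.2e-07) and higher in FGF2/Activin than in 2iLif (1.86 ± 0.16, adjusted p = 2.5e-08). The combination and Aurka inh differed by -0.08 (95% interval -0.41 to 0.26, adjusted p = 0.76).

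Eno2 gave 1.80, 1.67 and 1.87 CPM in the combination, 5.58, 3.11 and 6.13 in PD032, 4.14, 2.20 and 3.64 in Aurka inh, 2.56, 1.47 and 2.49 in FGF2/Activin and 2.21, 1.96 and 1.89 in 2iLif. The combination lay below PD032 and below Aurka inh in every library. Eno2 was lower in the combination than in PD032 (-1.48 ± 0.26, adjusted p = 0.00025) and than in Aurka inh (-0.92 ± 0.28, adjusted p = 0.017). The second call was lost without Aurka inh 1 or Aurka inh 3 (adjusted p 0.084 and 0.058). Between PD032 and Aurka inh the log2 fold change was 0.56 (adjusted p = 0.074; 0.0038 with the replicate block).

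Pkm, whose product makes pyruvate, gave 3062, 2909 and 3119 CPM in the combination, 2742, 2514 and 2799 in PD032, 3281, 3002 and 3435 in Aurka inh, 2863, 2846 and 2908 in FGF2/Activin and 2259.9, 2223 and 2469 in 2iLif. Every library of the other media lay above every 2iLif library. Pkm was higher in FGF2/Activin than in 2iLif (0.31 ± 0.06, adjusted p = 0.00019) and lower in PD032 than in Aurka inh (-0.27 ± 0.06, adjusted p = 0.0012). In the combination it was higher than in PD032 (0.17, adjusted p = 0.023), though not without combination 3 or PD032 2 (adjusted p 0.083 and 0.087), with library size alone as the scale (0.103) or with only these groups in the fit (0.051). Against Aurka inh it differed by -0.10 (adjusted p = 0.22; 0.010 with the replicate block).

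Aldoc, the brain aldolase, gave 25.2, 23.2 and 24.4 CPM in the combination, 30.9, 23.7 and 30.4 in PD032, 22.9, 20.9 and 21.5 in Aurka inh, 26.1, 23.7 and 23.1 in FGF2/Activin and 47.1, 45.3 and 55.9 in 2iLif. All 2iLif libraries lay above all others, and Aldoc was lower in FGF2/Activin than in 2iLif (-1.03 ± 0.10, adjusted p = 1.7e-07). Tpi1, triose phosphate isomerase, averaged 564 ± 18 CPM in FGF2/Activin and 390 ± 43 in 2iLif (0.53 ± 0.08, adjusted p = 1.0e-05). Gapdh, the glyceraldehyde 3-phosphate dehydrogenase often used as a reference gene, averaged 1369 ± 15 CPM in the combination, 1246 ± 33 in PD032, 1305 ± 53 in Aurka inh, 1097 ± 19 in FGF2/Activin and 1288 ± 73 in 2iLif. Gapdh was lower in FGF2/Activin than in 2iLif (-0.23, adjusted p = 0.00040). It was 0.13 in the combination against PD032 (adjusted p = 0.028), a call lost without any of combination 1, combination 3, PD032 1 or PD032 3 (adjusted p 0.057 to 0.095).

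In PD032 against Aurka inh, 5 of the 10 genes of lower glycolysis were lower: Pgk1 (phosphoglycerate kinase, -0.35), Eno1 (the common enolase, -0.33), Pgam1 (phosphoglycerate mutase, -0.32), Tpi1 (-0.28) and Pkm (-0.27), while Aldoc (0.38) and Eno3 were higher. Over all tested genes 19.7% were lower and 25.8% higher in this comparison. In the combination against PD032, Pgk1 (0.29, adjusted p = 0.0023), Pkm and Gapdh were higher. Eno1 and Tpi1 did not pass there (0.15 and 0.16, adjusted p 0.055 and 0.096), and passed with the replicate block (adjusted p 0.0015 and 0.0018). In the combination against Aurka inh, Pgam1 (-0.23, adjusted p = 0.026) and Eno1 (-0.18, adjusted p = 0.031) were lower. Pgam1 was lost without Aurka inh 1, Aurka inh 3, combination 2 or combination 3 (adjusted p 0.052 to 0.141), and Eno1 without Aurka inh 3, combination 1 or combination 2 (adjusted p 0.069 to 0.137). Pgk1 in FGF2/Activin against 2iLif passed narrowly (0.16, adjusted p = 0.0499), with overlapping libraries, and was lost without any of 5 of the 6 libraries (adjusted p 0.066 to 0.428).

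The lactate dehydrogenase genes changed in opposite directions between FGF2/Activin and 2iLif. Ldha gave 1033, 798 and 997 CPM in the combination, 910.1, 754 and 882 in PD032, 1562, 1351 and 1689 in Aurka inh, 1518, 1455 and 1501 in FGF2/Activin and 516, 474 and 613 in 2iLif. Aurka inh and FGF2/Activin libraries were the high ones, 2iLif the low ones, and the other inhibitor media lay between them. Ldha was higher in FGF2/Activin than in 2iLif (1.48 ± 0.11, adjusted p = 5.6e-09). It was lower than in Aurka inh in the combination (-0.70 ± 0.11, adjusted p = 0.00010) and in PD032 (-0.85 ± 0.11, adjusted p = 9.3e-06). Between the combination and PD032 it differed by 0.15 (95% interval -0.08 to 0.38, adjusted p = 0.27; 0.0062 with the replicate block, and 0.043 without the libraries numbered 2).

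Ldhb, whose subunit favours the oxidation of lactate, gave 518, 609 and 544 CPM in the combination, 456, 591 and 471 in PD032, 389, 523 and 416 in Aurka inh, 244, 244 and 253 in FGF2/Activin and 372, 383 and 425 in 2iLif. FGF2/Activin lay below every other library, and the library numbered 2 was the highest of each inhibitor group. Ldhb was lower in FGF2/Activin than in 2iLif (-0.67 ± 0.11, adjusted p = 4.0e-05). It was higher in the combination than in Aurka inh (0.33, adjusted p = 0.023), with overlapping libraries, a call lost without Aurka inh 1, Aurka inh 3 or combination 2 (adjusted p 0.090 to 0.102). It did not pass in PD032 against Aurka inh (0.19, adjusted p = 0.15; 8.0e-05 with the replicate block) or in the combination against PD032 (0.14, adjusted p = 0.31; 0.0016 with the replicate block). Without the libraries numbered 2 it passed in both (adjusted p 0.0038 and 0.0050).

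Around pyruvate dehydrogenase, Pdha1 and Pdk1 passed in every comparison, for which no share over all genes was counted. Pdha1, the catalytic subunit of the complex, gave 275, 294 and 295 CPM in the combination, 190.2, 204 and 195 in PD032, 251, 258 and 244 in Aurka inh, 239, 252 and 259 in FGF2/Activin and 371, 380 and 369 in 2iLif. PD032 held the low libraries and 2iLif the high ones. Pdha1 was higher in the combination than in PD032 (0.55 ± 0.05, adjusted p = 9.1e-08) and Aurka inh (0.20 ± 0.05, adjusted p = 0.0033; 0.060 with only these groups in the fit), lower in PD032 than in Aurka inh (-0.36 ± 0.05, adjusted p = 1.3e-05) and lower in FGF2/Activin than in 2iLif (-0.58 ± 0.05, adjusted p = 1.4e-08).

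Pdk1, the kinase that hypoxia-inducible factor is known to raise and that shuts the complex down, gave 332, 322 and 326 CPM in the combination, 196, 214 and 202 in PD032, 417, 409 and 420.2 in Aurka inh, 313, 334 and 339 in FGF2/Activin and 265, 273 and 281 in 2iLif. No library of PD032 overlapped with any other medium, and no library of Aurka inh did. Pdk1 was higher in the combination than in PD032 (0.68 ± 0.05, adjusted p = 7.0e-09), lower in the combination than in Aurka inh (-0.35 ± 0.05, adjusted p = 2.2e-05) and lower in PD032 than in Aurka inh (-1.02 ± 0.05, adjusted p = 6.6e-11). In FGF2/Activin against 2iLif it was 0.27 (SE 0.05, adjusted p = 7.4e-05). Pdha1 and Pdk1, with opposite known effects on the flux of pyruvate, were thus both lowest in PD032.

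Pdk2, a kinase of the same complex, was rare and moved unlike Pdk1, with 2.03, 1.20 and 1.46 CPM in the combination, 5.12, 4.08 and 4.42 in PD032, 0.864, 0.944 and 1.35 in Aurka inh, 5.11, 4.91 and 4.66 in FGF2/Activin and 3.31, 4.33 and 3.45 in 2iLif. Both media with Aurka inh had low values. Pdk2 was lower in the combination than in PD032 (-1.53 ± 0.19, adjusted p = 7.8e-06) and higher in PD032 than in Aurka inh (2.10 ± 0.21, adjusted p = 6.2e-07), and differed by 0.57 between the combination and Aurka inh (adjusted p = 0.076). Pdk3 was higher in FGF2/Activin than in 2iLif (0.55, adjusted p = 2.2e-06), and higher than in Aurka inh in the combination (0.25, adjusted p = 0.0075; 0.076 with only these groups in the fit) and in PD032 (0.26, adjusted p = 0.0042).

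Pdp1, a phosphatase that reactivates the complex, gave 10.5, 7.31 and 7.91 CPM in the combination, 10.9, 10.6 and 11.2 in PD032, 8.60, 10.5 and 9.57 in Aurka inh, 14.7, 13.98 and 15.3 in FGF2/Activin and 5.07, 4.60 and 5.21 in 2iLif. FGF2/Activin held the high libraries and 2iLif the low ones. Pdp1 was higher in FGF2/Activin than in 2iLif (1.56 ± 0.13, adjusted p = 3.0e-08). It was lower in the combination than in PD032 (-0.35, adjusted p = 0.029), a call lost without the libraries numbered 2 (adjusted p = 0.054) and without combination 2, combination 3, PD032 1 or PD032 3 (adjusted p 0.062 to 0.120). The other subunits varied little. Pdhb and Dlat were higher in the combination than in PD032 (0.18 and 0.24, adjusted p 0.011 and 0.00025; Pdhb not without PD032 1 or PD032 3, adjusted p 0.058 and 0.055) and lower in PD032 than in Aurka inh (-0.19 and -0.33, adjusted p 0.0068 and 9.0e-06), and neither passed in FGF2/Activin against 2iLif.

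In the pentose phosphate pathway 4 of the 6 genes were higher in FGF2/Activin than in 2iLif, where 33.3% of all tested genes were higher. The others, Taldo1 and Rpia, did not pass there. G6pdx, the entry enzyme that makes NADPH, gave 101, 95.3 and 98.5 CPM in the combination, 105, 103 and 104 in PD032, 143, 119 and 134 in Aurka inh, 219, 211 and 209.5 in FGF2/Activin and 146, 147 and 155 in 2iLif. FGF2/Activin held the high libraries and the combination the low ones. G6pdx was higher in FGF2/Activin than in 2iLif (0.51 ± 0.06, adjusted p = 6.7e-07) and lower than in Aurka inh in the combination (-0.43 ± 0.06, adjusted p = 2.5e-05) and in PD032 (-0.34 ± 0.06, adjusted p = 0.00013).

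Pgls, which acts just after G6pdx, averaged 54.8 ± 2.3 CPM in FGF2/Activin and 35.7 ± 1.8 in 2iLif (0.62, adjusted p = 1.1e-06). It averaged 33.9 ± 2.2 CPM in the combination, 48.5 ± 2.5 in PD032 and 45.1 ± 3.4 in Aurka inh, and was lower in the combination than in PD032 (-0.52, adjusted p = 1.7e-05) and Aurka inh (-0.41, adjusted p = 0.00025). Tkt, a transketolase of the non-oxidative branch, and Pgd, which makes ribulose 5-phosphate, were the others higher in FGF2/Activin than in 2iLif (0.49 and 0.29, adjusted p 2.6e-07 and 0.0011). Tkt was lower in the combination than in PD032 (-0.22, adjusted p = 0.0018). Rpia, which makes ribose 5-phosphate, was lower in PD032 than in Aurka inh (-0.31, adjusted p = 0.0038). It was higher in the combination than in PD032 (0.22, adjusted p = 0.035), lost without combination 3 or any PD032 library (adjusted p 0.066 to 0.121). Taldo1, the transaldolase, gave 199 to 201 CPM in FGF2/Activin and 227 to 243 in 2iLif, with no overlap. It narrowly missed the threshold there (-0.22, adjusted p = 0.0506), and it was lower in FGF2/Activin without the libraries numbered 2 (adjusted p = 0.00011) and with only these groups in the fit (adjusted p = 2.0e-06). It did not pass between inhibitor media either, although with the replicate block it was higher than in Aurka inh in the combination (0.13, adjusted p = 0.0035) and in PD032 (0.12, adjusted p = 0.0085).

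In the inhibitor media against 2iLif, where a batch cannot be told apart, several genes moved alike in all 3. Pfkm was higher than in 2iLif by a log2 fold change of 1.02 in the combination, 1.21 in PD032 and 1.27 in Aurka inh, and Ldha by 0.82, 0.67 and 1.52 in the same order. Pfkl (0.83, 0.99 and 1.38), Pdp1 (0.79, 1.13 and 0.94) and Pkm (0.39, 0.21 and 0.48) were higher as well, and each of these genes passed in all 3. They were named because they moved alike, and the 3 comparisons use the same 2iLif libraries. How many of all tested genes moved alike in all 3 was not counted. Pfkfb2 (-0.70, -0.94 and -1.37), Aldoc (-1.03, -0.80 and -1.18), G6pdx (-0.61, -0.52 and -0.18) and Pdha1 (-0.37, -0.93 and -0.57) were lower, although G6pdx in Aurka inh failed without 2iLif 3 or Aurka inh 2 (adjusted p 0.080 and 0.066), with library size alone (0.082) and with only these groups in the fit (0.11).

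Other genes differed between the inhibitors in their distance from 2iLif. Eno3 was higher than in 2iLif in PD032 (2.01 ± 0.15, adjusted p = 1.1e-08), with 0.25 in the combination (adjusted p = 0.24) and 0.32 in Aurka inh (adjusted p = 0.11). Pdk1 was lower than in 2iLif in PD032 (-0.42) and higher in the combination (0.26) and in Aurka inh (0.61), and Pdk2 was lower in the combination (-1.23) and in Aurka inh (-1.81). Pfkfb3 was higher in the combination (1.35, adjusted p = 0.00025) and in Aurka inh (1.24, adjusted p = 0.00036). In PD032 it was 0.45 (adjusted p = 0.13), and it passed without the libraries numbered 2 (adjusted p = 3.4e-05).

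The split between the 6 libraries of Aurka inh and FGF2/Activin and the 9 others held for 5 of the 34 genes, which were singled out after their values were seen; over all tested genes it held for 8.78%. Hk1 lay at 43.1 to 54.9 CPM in the 6, against 119 to 187 in the 9, Hk2 at 338 to 359 against 372 to 631, and Pfkp at 186 to 401 against 467 to 738. Ldha lay at 1351 to 1689 CPM in the 6, against 474 to 1033 in the 9, and Pfkm at 133.3 to 152 against 53.2 to 132.6, with its ranges almost touching. For the other 29 genes these libraries overlapped.

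Shares within isozyme families, per kilobase of exon and over the isozymes among the 34 genes, give the mix of enzymes without the level of the family. Hk1 made up 17.8% ± 1.8 of the Hk1 and Hk2 counts in the combination, 20.6% ± 2.1 in PD032, 8.66% ± 0.66 in Aurka inh, 9.75% ± 0.45 in FGF2/Activin and 17.2% ± 0.6 in 2iLif (SD, n = 3 each, as for the shares that follow). Pfkp made up 38.1% ± 0.8 of phosphofructokinase counts in the combination, 27.9% ± 2.0 in PD032, 19.2% ± 2.7 in Aurka inh, 11.7% ± 0.4 in FGF2/Activin and 45.7% ± 1.7 in 2iLif. Ldha made up 44.5% ± 5.4 of the Ldha and Ldhb counts in the combination, 44.5% ± 5.9 in PD032, 62.1% ± 6.1 in Aurka inh, 74.1% ± 0.5 in FGF2/Activin and 39.1% ± 1.9 in 2iLif. With counts not divided by length it made up 62.7%, 62.6%, 77.5%, 85.8% and 57.5% in the same order. Which of these genes leads in the combination, PD032 and 2iLif thus depends on the lengths used. Of the 5 media, FGF2/Activin thus had the highest share of Ldha and the lowest share of Pfkp.

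Pfkfb3 made up 68.3% ± 5.9 of the Pfkfb2, Pfkfb3 and Pfkfb4 counts in the combination, 51.8% ± 3.0 in PD032, 69.8% ± 5.9 in Aurka inh, 74.4% ± 1.2 in FGF2/Activin and 34.2% ± 1.5 in 2iLif. With Pfkfb1, a related gene outside the 34, in the sum the share of Pfkfb3 was 44.6% ± 6.7 in the combination, 28.9% ± 3.7 in PD032, 42.4% ± 6.7 in Aurka inh, 45.9% ± 4.6 in FGF2/Activin and 19.3% ± 1.9 in 2iLif. Pdk1 made up 68.7% ± 1.7 of the Pdk1, Pdk2 and Pdk3 counts in the combination, 56.5% ± 1.1 in PD032, 76.9% ± 0.9 in Aurka inh, 65.5% ± 1.4 in FGF2/Activin and 69.6% ± 1.3 in 2iLif. Eno3 made up 6.96% ± 1.17 of the Eno1, Eno2 and Eno3 counts in PD032 and 6.79% ± 0.20 in FGF2/Activin, and at most 2.64% in any library of the other media. These shares depend on the gene lengths: with counts not divided by length Eno3 made up 2.37% in PD032 and 2.30% in FGF2/Activin, and Pfkp 25.1% in FGF2/Activin and 67.4% in 2iLif. Of 49 pairs of groups over 7 families, 38 had shares that did not overlap; each reached p = 0.1 in a two-sided exact permutation test, the smallest that 3 against 3 libraries allow, and 0.129 after adjustment over the 49.

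**Figure D5:**
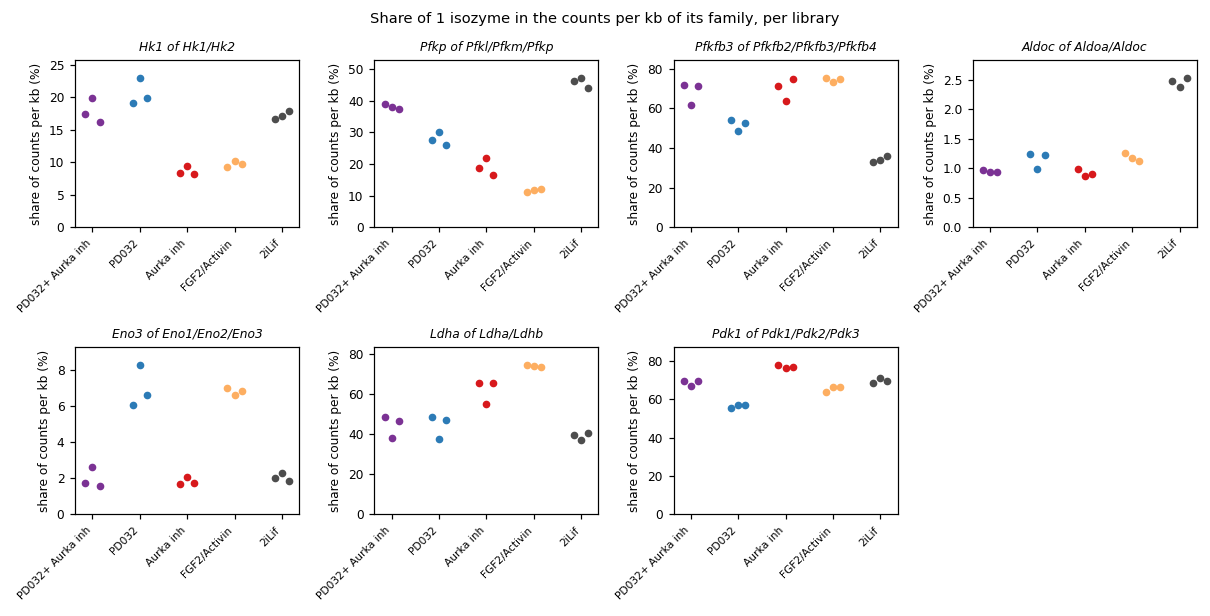
Points are single libraries, 3 per medium, and give the share of 1 isozyme in the summed counts per kilobase of its family (isozymes among the 34 genes), in percent; axes start at 0. The Ldha share is 73.8% to 74.7% in FGF2/Activin, 55.1% to 65.8% in Aurka inh and 37.0% to 40.6% in 2iLif.

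Other genes of the same pathways were followed in a list of 39, of which 30 were tested. In FGF2/Activin against 2iLif 8 were higher and 11 lower, in the combination against PD032 5 and 7, in the combination against Aurka inh 9 and 3, and in PD032 against Aurka inh 9 and 4. These are 63.3%, 40.0%, 40.0% and 43.3% of the 30, beside 65.9%, 43.7%, 34.9% and 45.5% of all tested genes. In FGF2/Activin against 2iLif the largest changes were in Tktl1, a transketolase-like gene (2.55 CPM in FGF2/Activin and 0.284 in 2iLif, log2 fold change 3.13, adjusted p = 4.5e-07), and Fbp1, which reverses the phosphofructokinase step in gluconeogenesis (4.76 and 0.834 CPM, 2.503, adjusted p = 2.0e-08). Prps2, which uses ribose 5-phosphate to make nucleotide precursors, followed at 207 CPM in FGF2/Activin and 55.0 in 2iLif (1.91, adjusted p = 2.7e-13). Fbp1 averaged 5.72 CPM in the combination, 11.2 in PD032 and 4.34 in Aurka inh, lower in the combination than in PD032 (-0.97, adjusted p = 1.8e-05) and higher in PD032 than in Aurka inh (1.38, adjusted p = 6.2e-07).

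Targets of hypoxia-inducible factor 1 outside glycolysis formed a list of 17, all tested. In FGF2/Activin against 2iLif 10 were higher and 2 lower (median log2 fold change 0.43, against -0.01 over all genes), and in PD032 against Aurka inh 9 were higher and 1 lower (0.41, against 0.02). In the combination against PD032 4 were higher and 8 lower (-0.24, against 0.01), and against Aurka inh 6 and 3 (-0.01, against 0.01). These are 70.6%, 58.8%, 70.6% and 52.9% of the 17 in the order given, beside 65.9%, 45.5%, 43.7% and 34.9% of all tested genes. Slc2a1, the glucose transporter that feeds the pathway, averaged 349.6 ± 15.2 CPM in the combination, 821 ± 98 in PD032, 322 ± 31 in Aurka inh, 444 ± 19 in FGF2/Activin and 330.4 ± 21.9 in 2iLif. Slc2a1 was lower in the combination than in PD032 (-1.23 ± 0.08, adjusted p = 7.8e-09) and higher in PD032 than in Aurka inh (1.35 ± 0.08, adjusted p = 2.7e-09). In PD032, where Slc2a1 was high, Pdk1 and Ldha of the enzyme list were lower than in Aurka inh, as given above. Of the 34 enzyme genes 14 were lower there and 8 higher, among the latter Hk1, Hk2 and Eno3. A link between Slc2a1 and these genes was not tested.

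Egln3, a prolyl hydroxylase, averaged 3.58 ± 0.53 CPM in the combination, 18.1 ± 3.3 in PD032, 12.1 ± 3.5 in Aurka inh, 54.6 ± 0.6 in FGF2/Activin and 5.03 ± 0.66 in 2iLif (3.44 in FGF2/Activin against 2iLif, adjusted p = 1.3e-10; -2.33 in the combination against PD032, adjusted p = 8.3e-08). Bnip3, a mitophagy gene, averaged 39.2 ± 2.4 CPM in FGF2/Activin and 9.88 ± 2.36 in 2iLif (1.99, adjusted p = 1.8e-08). Adm, a secreted peptide, had 2 counts over all 2iLif libraries, and no fold is given for it there.

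Among 20 known regulators of the pathway, 11 were higher and 7 lower in FGF2/Activin than in 2iLif. In the combination 6 were higher and 8 lower than in PD032, and 10 higher and 4 lower than in Aurka inh, and in PD032 10 were higher and 2 lower than in Aurka inh. These are 90%, 70%, 70% and 60% of the 20, beside 65.9%, 43.7%, 34.9% and 45.5% of all tested genes. Myc, a transcription factor known to raise many glycolytic genes, averaged 6.02 ± 0.99 CPM in the combination, 3.60 ± 0.96 in PD032, 14.7 ± 0.9 in Aurka inh, 64.0 ± 2.2 in FGF2/Activin and 21.1 ± 0.3 in 2iLif. Myc was lower in PD032 than in Aurka inh (-2.03 ± 0.14, adjusted p = 1.1e-08) and in the combination than in Aurka inh (-1.29 ± 0.13, adjusted p = 2.0e-06). Txnip, which restrains glucose uptake, was higher in PD032 than in Aurka inh (1.27 ± 0.06, adjusted p = 8.7e-11), and Esrrb, a nuclear receptor of naive cells, was lower in FGF2/Activin than in 2iLif (-4.83 ± 0.13, adjusted p = 3.5e-14) and higher in the combination than in PD032 (1.40 ± 0.11, adjusted p = 4.4e-08).

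Some counts may hold reads of other genes. Exons of Hk1, Gpi1, Pfkm, Pfkp, Pfkfb2, Aldoa, Tpi1, Gapdh, Pdha1 and G6pdx overlap a gene on the opposite strand (Hk1os for Hk1, Senp1 for Pfkm and Iffo1 for Gapdh, among others), and whether the counting used strand is not given in the sources used here. Exons of Pfkm, Pfkfb2, Pkm, Tkt and Pgls overlap a gene on the same strand (Gm26513, Gm29427, Gm49759, Mir3076 and Fam129c), which a count by strand does not separate. The 10 processed pseudogenes named after Aldoa, Gapdh, Pgk1, Pgam1 and Ldha held at most 267 counts each over all libraries. Summing each gene with the pseudogenes of its name changed no call of an enzyme gene.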

How the data were processed

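RNA sequencing of 15 libraries was analysed, 3 per group. The deposited table holds raw counts per gene by Ensembl identifier, and all fits start from these counts as the authors deposited them. Per the submitters' processing notes, STAR, DESeq2 and build mm10 were used. Neither their versions nor the tool, annotation and strand setting of the counting were given in the sources used here. Per the labels' protocols, RNA with an integrity number above 7 was selected for poly(A) and libraries were made with a directional kit. A deposited table of normalized values was not used.

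Symbols (for 49326 genes), coordinates and exon lengths came from GENCODE M21. Genes with enough counts were kept by filterByExpr of edgeR 4.0.16 (R 4.3.3), scaled by TMM factors and fitted in 1 quasi-likelihood model of all 15 libraries by group, with 5.73 prior degrees of freedom. The threshold was an adjusted p under 0.05 by the Benjamini-Hochberg method over 15223 genes, and adjusted p-values in the text come from this test unless another is named. CPM are counts scaled to the TMM-adjusted library total. Errors of log2 fold changes are standard errors, and those of levels are SDs over 3 libraries. Shares of isozymes were compared by two-sided exact permutation tests. The fit was tested on simulated counts. Promoter sequences are from RefSeq.

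The enzyme genes and the lists of other genes and markers were chosen with earlier results of these data known. Every enzyme gene may be named. Values in every library are given for the 6 that changed most among those passing in a comparison, for Hk2, Pfkfb3, Ldha, Ldhb, Pdk1 and Pkm, and for G6pdx, added after its values were seen. Genes of the other lists are named from the 4 that changed most per list and comparison.

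Same-numbered libraries of the 3 inhibitor groups deviated together from their group means (r across genes 0.170 to 0.483 for every pair), so the numbers were taken as pairs there. Unlike-numbered libraries of these groups gave r of -0.402 to 0.221, the highest between Aurka inh 1 and PD032 3. The 2 ranges overlap, so these values do not settle the pairing, and the replicate block rests on it as an assumption. Between FGF2/Activin and 2iLif r was -0.0260 to 0.00713, and across naming styles -0.0448 to 0.0654, and the numbers were not taken as pairs. The fit by group ignores the pairs among the inhibitor groups. Only the replicate block, run as an alternative, uses them. Adjusted p-values among the inhibitor media are thus unpaired unless the block is named. Alternatives were DESeq2 size factors, library size alone, the DESeq2 1.42.0 test, no filter on low counts, only the groups compared, replicate number as a block, each library left out, pseudogenes summed, counts not divided by length, and isozymes outside the enzyme list added to their families.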

Additional observations from a re-analysis of the deposited data

How the results depend on the processing

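The counts of enzyme genes higher or lower in the 7 comparisons stayed within 1.5 times their value under every alternative but 1: with only the groups compared in the fit, 5 were higher in the combination against Aurka inh, against 8 in the fit of all libraries. Leaving out 1 library gave 8 to 12 higher and 6 to 10 lower in the combination against PD032, 7 to 9 and 6 to 9 in the combination against Aurka inh, 6 to 10 and 14 in PD032 against Aurka inh, 14 to 15 and 10 to 11 in FGF2/Activin against 2iLif, 15 to 16 and 9 to 10 in the combination against 2iLif, 13 to 15 and 10 to 12 in PD032 against 2iLif, and 12 to 14 and 8 to 10 in Aurka inh against 2iLif. With the replicate block the genes higher and lower numbered 16 and 11 in the combination against PD032, 10 and 12 in the combination against Aurka inh, and 12 and 14 in PD032 against Aurka inh, where 57.8%, 48.5% and 57.8% of all tested genes passed with the block, against 43.7%, 34.9% and 45.5% without it; besides the genes given above, the block gave a call to Aldoc in the combination against PD032 (-0.23, adjusted p = 0.0090) and to Aldoa, Dlat and Tpi1 in the combination against Aurka inh (0.11, -0.10 and -0.12), and changed no other call among the inhibitor media. Over 164 single results and all alternatives, 2182 of 2296 values kept direction and call, 95 lost the call, 19 gained one and 0 reversed. With only the groups compared in the fit, calls were also lost for Gapdh, Pdp1 and Rpia in the combination against PD032 (adjusted p 0.061, 0.102 and 0.080), for Pgam1, Eno1 and Ldhb in the combination against Aurka inh (0.075, 0.089 and 0.089) and for Hk2 in PD032 against Aurka inh (0.19). Library size alone removed the calls of Gapdh and Rpia in the combination against PD032 (0.102 and 0.088), DESeq2 that of Rpia there (0.054) and DESeq2 size factors that of Hk2 in PD032 against Aurka inh (0.067). Without a filter on low counts Rpia in the combination against PD032 and Hk2 in PD032 against Aurka inh were lost (0.205 and 0.057), whereas Ldha in the combination against PD032, Ldhb in PD032 against Aurka inh and Pfkfb3 in PD032 against 2iLif passed (0.025, 0.0027 and 0.00046). Without the libraries numbered 2, Eno1 in the combination against Aurka inh was lost (0.065) and Pkm there passed (0.044). Where numbers were not taken as pairs, the block gave calls in FGF2/Activin against 2iLif to Taldo1 as lower (9.2e-06) and Pdk2 as higher (0.033). The block was set separately by naming style. Against 2iLif, an inhibitor medium was thus compared at replicate number 1 and not over all 3 libraries. There G6pdx in Aurka inh (0.054) and Pgam1 and Pfkfb4 in PD032 (0.24 and 0.23) lost their calls. Calls were gained by Pfkfb3 in PD032 (0.00013) and by Pgam1 and Tkt in Aurka inh (0.0062 and 0.037). Taldo1 in PD032 and the combination (8.4e-06 and 3.4e-05) and Dlat in the combination (0.032) gained calls as lower. With counts not divided by length, or with the isozymes outside the enzyme list added to 5 of the 7 families (chosen after seeing the data), no difference in shares changed direction among the 38 pairs that did not overlap. The causes were not tested. Leaving out the libraries numbered 2 was chosen after seeing the data. With 3 libraries a group no exact permutation test can go below 0.1.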
